A study of Homo sapiens with 4 samples.

Results

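Aminoacyl-tRNA synthetases are the enzymes that join each amino acid to its tRNA, and 36 genes of this family were compared between eGFP control and VIRMA-overexpressing SKBR3 cells. They were taken from the table of counts by gene symbol, 36 of 56271 rows. The 16 genes whose symbol ends in 2 encode enzymes that work in mitochondria. The other 20 encode cytosolic enzymes, of which GARS (glycine) and KARS (lysine) serve both compartments. The prolyl- and glutamyl-tRNA synthetase EPRS is 1 gene, and the phenylalanyl enzyme is built from the 2 gene products FARSA and FARSB.

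In the cytosol the charged tRNAs supply the ribosomes that translate nuclear mRNAs, and in mitochondria they supply a separate set of ribosomes that translate the few mRNAs of the mitochondrial genome. Both sets of synthetases are encoded in the nucleus, and the mitochondrial enzymes are imported as proteins. Several cytosolic synthetases assemble with the scaffold proteins AIMP1, AIMP2 and EEF1E1 into the multisynthetase complex, and many cytosolic synthetase genes are known targets of ATF4, the transcription factor of the amino acid and unfolded protein stress responses.

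SKBR3 is an established HER2-positive breast cancer cell line. Poly-A-enriched RNA was sequenced with a strand-specific kit in 2 libraries of eGFP control cells and 2 libraries of cells that overexpressed VIRMA, a subunit of the m6A methyltransferase complex, which methylates adenosines in mRNA. Both populations carried a lentiviral vector with the ubiquitin C promoter, encoding either eGFP alone or HA-tagged full-length VIRMA and eGFP separated by a p2A peptide, and both were sorted for eGFP as pools rather than clones. The duplicates were called biological by the study, and whether they came from separate transductions was not given in the sources used here, so the p-values cover only the spread between these libraries. The labels of every library give the same culture description, of a chamber nearly free of oxygen and of protein lysis, while the study's methods for the sequencing do not mention low oxygen. The study describes low oxygen for a time course of western blots and presents the RNA changes as those of optimal growth. Because the labels differ from this, the oxygen level of these cells was not settled.

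The libraries held 81446932 to 86375474 counts. VIRMA itself, listed as KIAA1429, had 710 and 682 counts in the control libraries and 3437 and 3460 counts in the VIRMA-overexpressing libraries. Its level was 4.89-fold higher (log2 fold change 2.29, SE 0.0685, adjusted p = 9.74e-26 by edgeR's quasi-likelihood test), with no overlap between the groups. ERBB2, the gene of HER2, had 580259 to 600215 counts in every library, whereas CDH1, the gene of the epithelial adhesion protein E-cadherin, had 5 to 33 counts. Of the 7 luminal epithelial markers tested, 2 were higher (GRHL2 0.51, KRT18 0.08), 3 were lower (KRT8 -0.51, EPCAM -0.39, KRT19 -0.12) and ERBB2 and TFAP2C were not called. At the same threshold, an adjusted p below 0.05, 35.1% of all 12205 tested genes were higher and 35.9% lower. The 11 erythroid marker genes together had 28.8 and 20.8 CPM (counts-per-million of the tested genes) in the control libraries against 0.885 and 0.544 CPM in the VIRMA-overexpressing libraries, most of it from the globin gene HBB with 2137, 1543, 0 and 0 counts. The 12 leukocyte markers summed to 4.72 and 2.85 CPM in the controls and to 2.19 and 2.08 CPM with VIRMA, and the 10 fibroblast or endothelial markers summed to 16.6 to 21.6 CPM. Both sums joined genes that went either way. CD3E had 73 and 60 counts in the controls against 87 and 90 with VIRMA, and PTPRC 23 and 13 against 3 and 0. Of the 2 fibroblast or endothelial markers tested, COL1A1 was lower (-0.62) and CDH5 higher (0.47). The part of these markers in the results for the synthetases was not tested, and in bulk RNA fewer cells of a type and less RNA per cell cannot be told apart.

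The promoters of 6 cytosolic synthetase genes held the letters TGATGNAA, the core of the C/EBP-ATF response element that ATF4 is known to bind, and they are shown because these 6 genes were all higher in the VIRMA-overexpressing cells. RefSeq promoters (GRCh38.p14) reaching from 250 bases before to 50 bases after the start site were found for 30 of the 36 genes. AARS2, DARS, LARS, VARS, VARS2 and YARS had none in the table. Each window below is read 5′ to 3′ on the strand of the gene and is 30 bases long, and the capitals mark the 8 matched letters, which read TTGCATCA where the match lies on the other strand.
AARS: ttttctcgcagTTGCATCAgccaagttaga
CARS: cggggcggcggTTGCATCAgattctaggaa
IARS: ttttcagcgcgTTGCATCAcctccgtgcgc
MARS: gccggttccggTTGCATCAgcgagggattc
NARS: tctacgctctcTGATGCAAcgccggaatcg
TARS: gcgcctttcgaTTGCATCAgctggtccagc
YARS2: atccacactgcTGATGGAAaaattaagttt

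The windows lie at chr16:70289675-70289704 on the minus strand for AARS, chr11:3057407-3057436 on the minus strand for CARS and chr9:92293692-92293721 on the minus strand for IARS. Those of MARS (chr12:57488053-57488082) and TARS (chr5:33440956-33440985) are on the plus strand, and those of NARS (chr18:57621804-57621833) and YARS2 (chr12:32756076-32756105) on the minus strand. In all 6 cytosolic windows the matched letters were TGATGCAA on one strand or the other, and in YARS2, the only mitochondrial gene with a match, they were TGATGGAA. A search of both strands found this motif in 6 of 16 cytosolic promoters, in 1 of 14 mitochondrial promoters and in 3.62% of all 35116 promoters of the same length. All 6 cytosolic genes with the motif were called higher, and YARS2 was called lower (log2 fold change -0.49). Of the 10 cytosolic promoters without it, 5 belonged to genes called higher, 4 to genes called lower and 1 to a gene not called. WARS, the gene with the largest increase (1.68), and GARS (1.23) were among these 5. Of all 20 cytosolic genes 14 were called higher, and of all tested genes 35.1%. The motifs were chosen with earlier results of these data known. The match is a description of the letters and does not show that a factor binds there.

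The other 4 motifs searched, on both strands, were found in both classes. The ETS letters CCGGAAG were in 8 of 16 cytosolic and 6 of 14 mitochondrial promoters (10.3% of all promoters), and CCAAT was in 7 and 9 of them (34.6% of all). The NRF1 site was in 3 promoters of each class (5.78% of all). The E-box CACGTG was in 1 cytosolic promoter, that of IARS, and in those of the mitochondrial genes CARS2, EARS2 and MARS2 (7.26% of all). Of the cytosolic genes with a match, 5 of 8 (ETS), 6 of 7 (CCAAT), 3 of 3 (NRF1 site) and 1 of 1 (E-box) were called higher. Without a match these were, in the same order, 6 of 8, 5 of 9, 8 of 13 and 10 of 15. Of the mitochondrial genes with a match, 1 of 6, 2 of 9, 0 of 3 and 1 of 3 were called higher. The share of all tested genes called higher was 35.1%.

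Most cytosolic synthetase mRNAs were more abundant in VIRMA-overexpressing cells and most mitochondrial synthetase mRNAs were not. Of the 20 cytosolic genes, 14 were higher, 5 were lower and 1 (RARS) was not called at an adjusted p below 0.05 (edgeR), against 35.1% of all 12205 tested genes called higher and 35.9% called lower. Of the 16 mitochondrial genes, 2 were higher, 8 were lower and 6 were not called. Because 71% of all tested genes were called in one direction or the other, a call on its own sets no gene apart, and the size of the change is given with each. With a change of more than 2-fold also required, 7 cytosolic genes were higher and 0 lower, against 4.52% and 2.93% of all tested genes, and no mitochondrial gene passed. The median log2 fold change was 0.79 over the cytosolic genes (range -0.42 to 1.68), -0.15 over the mitochondrial genes (range -0.61 to 0.29) and 0.01 over all tested genes.

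**Figure D1:**
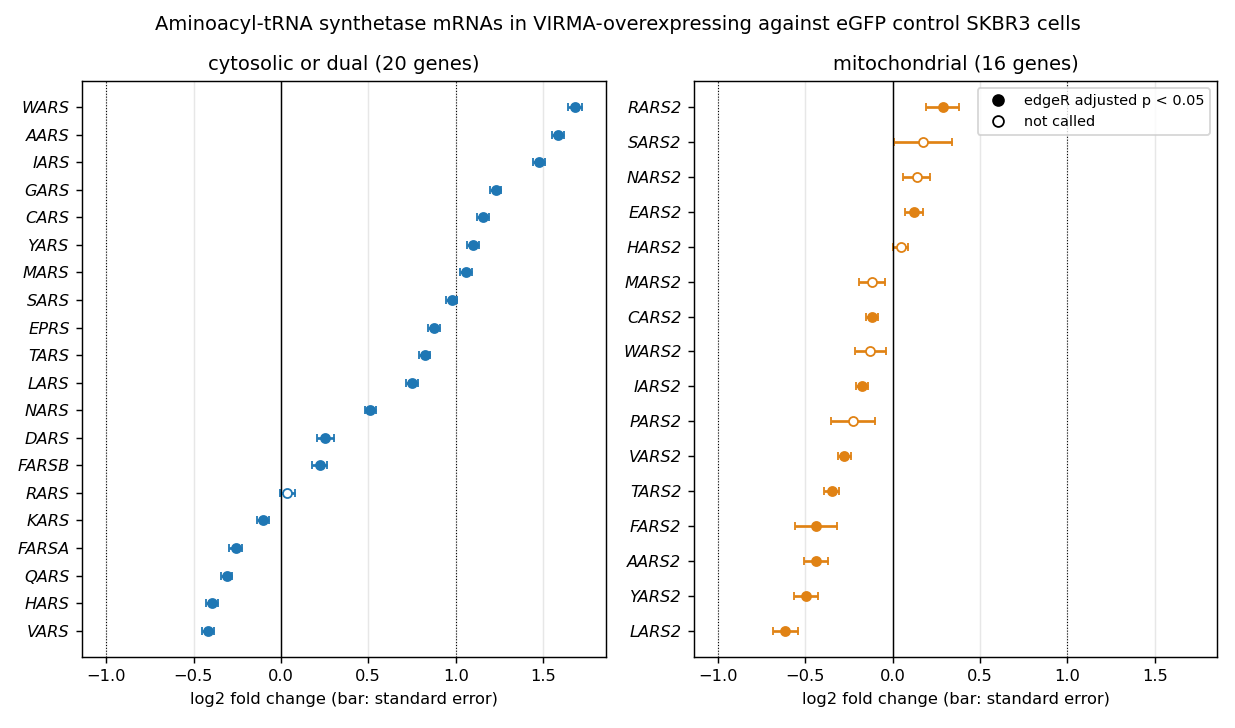
The log2 fold change of each synthetase mRNA (VIRMA-overexpressing against eGFP control, 2 libraries each; bars are standard errors) is plotted for 20 cytosolic or dual genes at left and 16 mitochondrial genes at right, with filled points for an edgeR adjusted p below 0.05 and dotted lines at a 2-fold change. The cytosolic genes run from -0.42 for VARS to 1.68 for WARS, and no mitochondrial gene lies beyond either dotted line.

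The contrast was also present within each library, where the scaling between libraries cancels. Levels were compared between genes as RPKM, the counts-per-million value divided by the exonic length in kilobases. The summed level of the cytosolic genes was 502.2 and 505.7 RPKM in the control libraries and 768.8 and 768.1 RPKM in the VIRMA-overexpressing libraries. That of the mitochondrial genes was 150.5 and 146.2 against 130.1 and 132.9 RPKM. The cytosolic sum was thus 3.34 and 3.46 times the mitochondrial sum in the control libraries and 5.91 and 5.78 times in the VIRMA-overexpressing libraries. When each gene had equal weight, the mean log2 RPKM of the cytosolic genes exceeded that of the mitochondrial genes by 1.62 and 1.72 in the controls and by 2.47 and 2.42 with VIRMA. This difference between classes was larger by 0.77 on the log2 scale (1.71-fold) in the VIRMA-overexpressing libraries, against a replicate SD of 0.0533. Together the 36 genes took 0.305% to 0.307% of all counts in the controls and 0.464% to 0.465% in the VIRMA-overexpressing libraries.

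**Figure D2:**
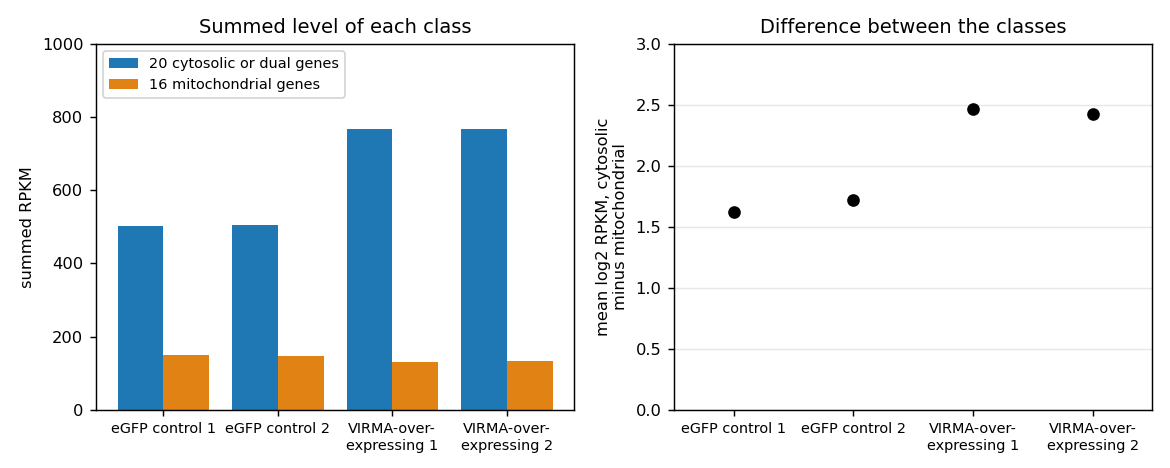
At left, bars from 0 give the summed RPKM of the 20 cytosolic or dual and the 16 mitochondrial genes in each of the 4 libraries, and at right points give the mean log2 RPKM of the cytosolic genes minus that of the mitochondrial genes in the same libraries. The cytosolic sum rises from about 502.2 to 768.8 RPKM while the mitochondrial sum stays between 130.1 and 150.5 RPKM, and the difference between the classes is above 2.4 only in the VIRMA-overexpressing libraries.

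The 6 cytosolic genes with the largest changes were WARS, AARS, IARS, GARS, CARS and YARS, whose enzymes charge tryptophan, alanine, isoleucine, glycine, cysteine and tyrosine tRNAs. WARS (chromosome 14, 100333788 to 100376805, minus strand, hg38) had 42.3 and 44.0 CPM in the controls and 137 and 140.3 CPM with VIRMA. The VIRMA-overexpressing libraries were both far above both controls, and the log2 fold change was 1.68 (SE 0.0394, adjusted p = 5.15e-29). AARS (chromosome 16, 70252295 to 70289543, minus strand), 1 of the genes with the motif printed above, had 133 and 128 CPM in the controls and 388 and 396 CPM with VIRMA. Its replicates lay within a few percent of each other in both groups, and it was higher by 1.59 (SE 0.0324, adjusted p = 8.51e-31). IARS (chromosome 9, 92210207 to 92293756, minus strand), a member of the multisynthetase complex, had 99.9 and 97.8 CPM in the controls and 280 and 271 CPM with VIRMA. The groups did not overlap, with a log2 fold change of 1.48 (SE 0.0333, adjusted p = 1.79e-29).

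GARS (chromosome 7, 30594681 to 30634033, plus strand), which makes both the cytosolic and the mitochondrial glycyl enzyme, had 178 and 185 CPM in the controls and 420 and 431 CPM with VIRMA. Both VIRMA-overexpressing libraries were the higher ones, by 1.23 (SE 0.0313, adjusted p = 6.86e-28). CARS (chromosome 11, 3000922 to 3057613, minus strand), whose promoter window is also printed above, had 67.1 and 66.4 CPM against 148 and 149 CPM. The replicates were nearly equal within each group and the gene was higher by 1.16 (SE 0.0362, adjusted p = 3.71e-25). YARS (chromosome 1, 32775237 to 32818153, minus strand) had 101 and 105 CPM against 219.8 and 221 CPM. It too was higher without overlap, by 1.10 (SE 0.0337, adjusted p = 1.89e-25).

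The methionyl gene MARS was the seventh gene past both thresholds, with a log2 fold change of 1.06. MARS shares 355 exonic bases, 5.05% of its exonic length, with the opposite-strand gene DDIT3, whose counts were 994 and 1036 in the controls and 11635 and 11364 with VIRMA, and the part of this overlap in the value of MARS was not tested. Below these 7 genes the called increases ran from 0.98 for the seryl gene SARS through EPRS (0.87), TARS (0.82), LARS (0.75) and NARS (0.51) to DARS (0.25) and FARSB (0.22), which charge proline and glutamate, threonine, leucine, asparagine, aspartate and, with FARSA, phenylalanine tRNAs. RARS, the arginyl gene, had 64.6 and 67.8 CPM in the controls and 69.5 and 66.3 CPM with VIRMA. These values overlapped, and its log2 fold change of 0.04 was not called (adjusted p = 0.450 by edgeR).

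The 3 cytosolic genes with the lowest values were VARS, HARS and QARS. VARS (chromosome 6, 31777518 to 31795953, minus strand), the valyl gene, had 171 and 179 CPM in the controls and 131 and 131 CPM with VIRMA. Both VIRMA-overexpressing libraries were below both controls, by -0.42 on the log2 scale (SE 0.0338, adjusted p = 2.54e-13). HARS (chromosome 5, 140673173 to 140692024, minus strand), the histidyl gene, had 171 and 168 CPM against 128 and 129 CPM. It was lower without overlap (log2 fold change -0.39, SE 0.0331, adjusted p = 6.58e-13). QARS (chromosome 3, 49095932 to 49105135, minus strand), the glutaminyl gene and a member of the multisynthetase complex, had 276 and 269 CPM against 222 and 217 CPM. The groups did not overlap here either, and the log2 fold change was -0.31 (SE 0.0311, adjusted p = 5.31e-11). FARSA (-0.26) and KARS (-0.10) were also called lower, KARS not when libraries were scaled by their totals or upper quartiles.

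Synthetases inside and outside the multisynthetase complex both contained genes that moved in either direction. Of the 8 complex members, DARS, EPRS, IARS, LARS and MARS were higher, KARS and QARS lower and RARS not called, with a median log2 fold change of 0.50. Of the 12 cytosolic genes outside the complex, 9 were higher and 3 lower, with a median of 0.90, and the difference between these medians was not tested. For comparison, 35.1% of all tested genes were called higher and 35.9% lower, or 71% in either direction. The subunits of the phenylalanyl enzyme changed in opposite directions, FARSA lower and FARSB higher. The RPKM of FARSA was 2.69 and 2.67 times that of FARSB in the controls and 1.99 and 1.86 times with VIRMA, a lower ratio by -0.48 on the log2 scale, with no overlap. The comparison of these subunits was added with their values known.

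The 6 mitochondrial genes at the upper end were RARS2, SARS2, NARS2, EARS2, HARS2 and MARS2, and of these only RARS2 and EARS2 were called. RARS2 (chromosome 6, 87514378 to 87590003, minus strand), the mitochondrial arginyl gene, had 9.79 and 10.2 CPM in the controls and 11.7 and 12.7 CPM with VIRMA. It was higher without overlap by 0.29 (SE 0.0930, adjusted p = 0.00675), and without VIRMA library 2 it was not called (0.22, adjusted p = 0.0952). EARS2 (chromosome 16, 23522014 to 23557731, minus strand), the glutamyl gene, had 36.9 and 36.8 CPM against 40.1 and 40.2 CPM. Its 2 values per group were almost identical, and the log2 fold change was 0.12 (SE 0.0508, adjusted p = 0.0310 by edgeR), a call that was lost without any 1 of the 4 libraries (adjusted p 0.0765 to 0.0913).

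The other 4 genes at the upper end did not pass the test with all 4 libraries. SARS2 (chromosome 19, 38915266 to 38930896, minus strand), the seryl gene, had 5.28 and 3.22 CPM in the controls and 5.12 and 4.47 CPM with VIRMA. Its control libraries were the highest and the lowest of the 4, so the groups overlapped (log2 fold change 0.17, SE 0.168, adjusted p = 0.361). The value rested on single libraries. It was 0.57 without control library 1, where the gene was called higher (adjusted p = 0.00442), and -0.14 without control library 2. NARS2 (chromosome 11, 78435961 to 78574874, minus strand), the asparaginyl gene, had 19.9 and 17.0 CPM against 19.8 and 20.8 CPM. The groups overlapped, with a log2 fold change of 0.14 (SE 0.0749, adjusted p = 0.102). HARS2 (chromosome 5, 140691426 to 140699291, plus strand), the histidyl gene, had 57.8 and 55.2 CPM against 59.6 and 57.1 CPM. These values overlapped as well, at a log2 fold change of 0.05 (SE 0.0441, adjusted p = 0.352). MARS2 (chromosome 2, 197705369 to 197708387, plus strand), the methionyl gene, had 17.8 and 16.9 CPM against 15.7 and 16.3 CPM. Both VIRMA-overexpressing libraries were lower, but by -0.12 (SE 0.0753), and the gene was not called (adjusted p = 0.155).

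The 3 mitochondrial genes with the lowest values were LARS2, YARS2 and AARS2. LARS2 (chromosome 3, 45388506 to 45549421, plus strand), the mitochondrial leucyl gene, had 24.7 and 22.2 CPM in the controls and 15.5 and 15.1 CPM with VIRMA. Both VIRMA-overexpressing libraries lay well below both controls (log2 fold change -0.61, SE 0.0724, adjusted p = 2.29e-09). YARS2 (chromosome 12, 32727490 to 32755902, minus strand), the tyrosyl gene, had 27.0 and 29.8 CPM against 18.7 and 21.6 CPM. It was lower without overlap by -0.49 (SE 0.0701, adjusted p = 1.09e-07), and its promoter window is printed above. AARS2 (chromosome 6, 44299654 to 44313326, minus strand), the alanyl gene, had 26.0 and 24.3 CPM against 17.9 and 19.2 CPM. The groups did not overlap, and the log2 fold change was -0.44 (SE 0.0682, adjusted p = 6.72e-07). Of the remaining 7 mitochondrial genes, FARS2 (-0.44), TARS2 (-0.35), VARS2 (-0.28), IARS2 (-0.18) and CARS2 (-0.12, not called with totals or upper quartiles) were called lower, and PARS2 (-0.23) and WARS2 (-0.13) were not called.

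Values without overlap were found for 14 cytosolic genes on the higher side and 5 on the lower side, and for 2 and 11 mitochondrial genes, against 42.7% (higher) and 41.6% (lower), or 84.3% in either direction, of all tested genes. Some members share exonic bases with a neighbour, where the strand setting of the counting matters and was not given. HARS and HARS2 lie head to head and share 592 bases, 17.4% of the exonic length of HARS2 and 7.02% of that of HARS. HARS shares a further 952 bases (11.3%) with WDR55. VARS2 shares 1858 bases (22.0%) with GTF2H4 on the same strand, and SARS2 shares 1492 bases (46.2%) with a same-strand row and 349 bases (10.8%) with MRPS12 on the opposite strand, so the levels of VARS2 and SARS2 are uncertain. In all, 8 cytosolic and 7 mitochondrial genes shared exonic bases with another row of more than 10 counts in every library. Among the 12 cytosolic genes without such a neighbour, 8 were higher, 3 were lower and 2 passed both thresholds, with a median log2 fold change of 0.63. Among the 9 mitochondrial genes, 1 was higher and 5 were lower, with a median of -0.23. The difference between the classes was then 0.74 on the log2 scale. This restriction was chosen after seeing the data. Its calls stand against 35.1% of all tested genes called higher, 35.9% called lower and 4.52% higher past both thresholds.

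In the control cells the cytosolic mRNAs spanned 6.65 (CARS) to 57.8 RPKM (QARS) and the mitochondrial mRNAs 1.32 (SARS2) to 32.6 RPKM (IARS2). QARS was the most abundant of the 36 in controls, followed by FARSA (48.5 RPKM), then by GARS (43.7 RPKM) and KARS (43.1 RPKM), whose replicate values overlapped. With VIRMA the order changed to GARS (102 RPKM), AARS (87.1 RPKM) and SARS (67.3 RPKM), followed by MARS, NARS and QARS, which overlapped, with mean levels of 46.6 to 46.8 RPKM. AARS moved from rank 8 to rank 2 and IARS from rank 20 to rank 9, whereas HARS moved from rank 12 to rank 20. IARS2 was the only mitochondrial gene among the 10 most abundant in the controls, at rank 7, and it was at rank 12 with VIRMA. Across genes, the control level and the log2 fold change had a Spearman correlation of -0.38 over the 20 cytosolic and -0.16 over the 16 mitochondrial genes. These points share the same 4 libraries, and the control values enter both measures.

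**Figure D3:**
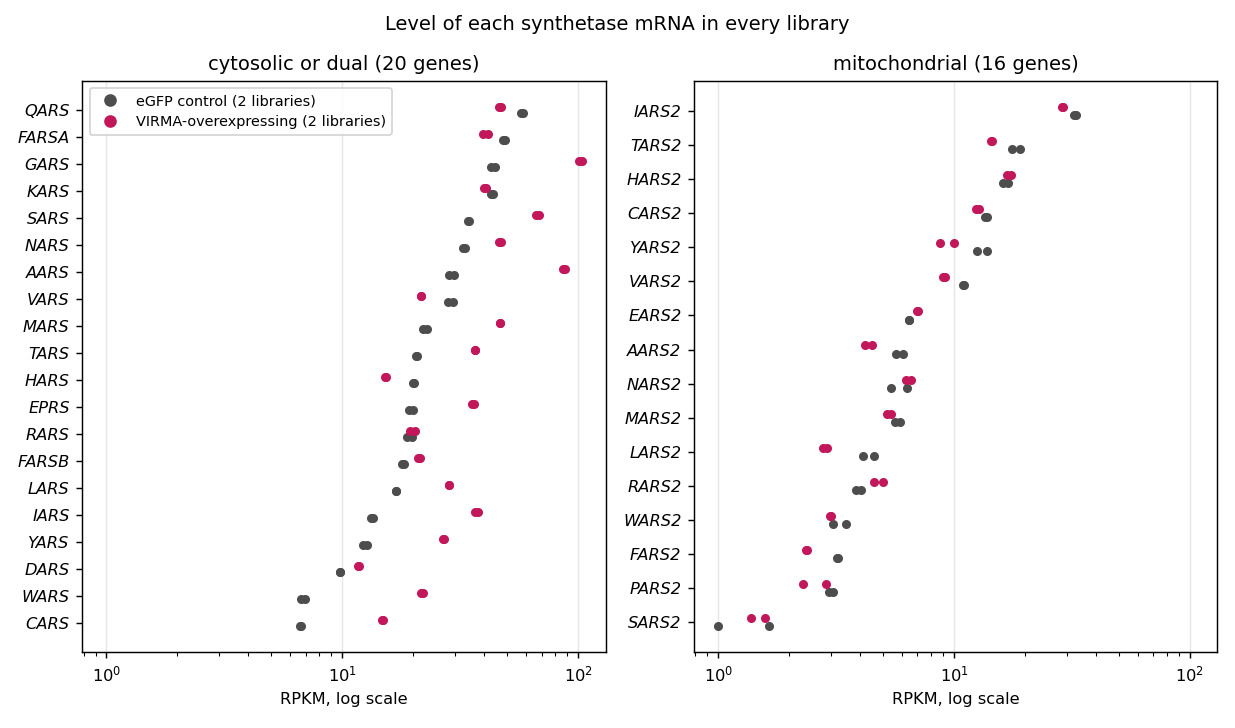
Each point is the level of 1 synthetase mRNA in 1 library, in RPKM on a log axis, with genes in order of their mean control level, 2 eGFP control libraries in grey and 2 VIRMA-overexpressing libraries in magenta. WARS and CARS are the lowest cytosolic genes in the controls, at 6.79 and 6.65 RPKM, and reach 21.8 and 14.8 RPKM with VIRMA, and the mitochondrial gene with the largest fall, LARS2, goes from 4.34 to 2.84 RPKM.

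Pairing the enzymes for the same amino acid gave 16 ratios of a cytosolic to a mitochondrial mRNA within each library, in which the scaling between libraries cancels. The ratio was higher in the VIRMA-overexpressing libraries for 13 pairs and lower for 3, and for none of the 16 did the groups overlap. Among single tested genes, 84.3% did not overlap either, so the size of each change is given. An exact two-sided permutation test with 2 libraries against 2 cannot give a p below 0.33, and each pair reached this smallest value (adjusted p = 0.333 over 16 pairs). The median change of the ratio was 1.14 on the log2 scale. In the controls the cytosolic mRNA had the higher RPKM in 13 of 16 pairs, and with VIRMA in 15.

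The alanyl pair changed most. AARS was 4.90 and 5.01 times as abundant per length as AARS2 in the controls and 20.7 and 19.7 times with VIRMA, a 4.07-fold larger ratio in which AARS rose and AARS2 fell. The isoleucyl, cysteinyl and tyrosyl pairs crossed equality. IARS was at 0.411 and 0.410 of IARS2 in the controls and at 1.31 and 1.27 with VIRMA. CARS was at 0.485 and 0.488 of CARS2 and then at 1.19 and 1.16. YARS was at 0.978 and 0.923 of YARS2 and then at 3.08 and 2.68. In these pairs the mitochondrial mRNA thus had the higher RPKM in the controls and the cytosolic mRNA with VIRMA. The side of equality depends on the exonic lengths used, such as 8212 bases for YARS and 2152 bases for YARS2. Before division by length, YARS had 8287 and 8691 counts in the controls and YARS2 had 2221 and 2468. The change of a ratio between groups does not depend on these lengths.

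For tryptophan the ratio of WARS to WARS2 went from 1.92 and 2.26 to 7.16 and 7.41, a change of 1.81 on the log2 scale. The changes were 1.36 for leucine, 1.18 for methionine, 1.17 for threonine, 1.11 for proline (EPRS to PARS2), 0.75 for glutamate (EPRS to EARS2), 0.37 for asparagine and 0.18 for phenylalanine (FARSA to FARS2), where both genes were lower. For serine the control ratios were 21.0 and 34.1, and with VIRMA they were 43.2 and 47.9, so that the controls lay further from each other than the higher control did from the lower VIRMA value.

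The pairs that went the other way were those for histidine, arginine and valine. HARS was at 1.19 and 1.23 of HARS2 in the controls and at 0.869 and 0.915 with VIRMA, a log2 change of -0.44 that took the pair below equality, and HARS and HARS2 share exonic bases with each other. RARS was at 4.91 and 4.94 of RARS2 and then at 4.43 and 3.88 (log2 change -0.25, and -0.15 without VIRMA library 2). VARS was at 2.56 and 2.67 of VARS2 and then at 2.40 and 2.34 (log2 change -0.14).

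**Figure D4:**
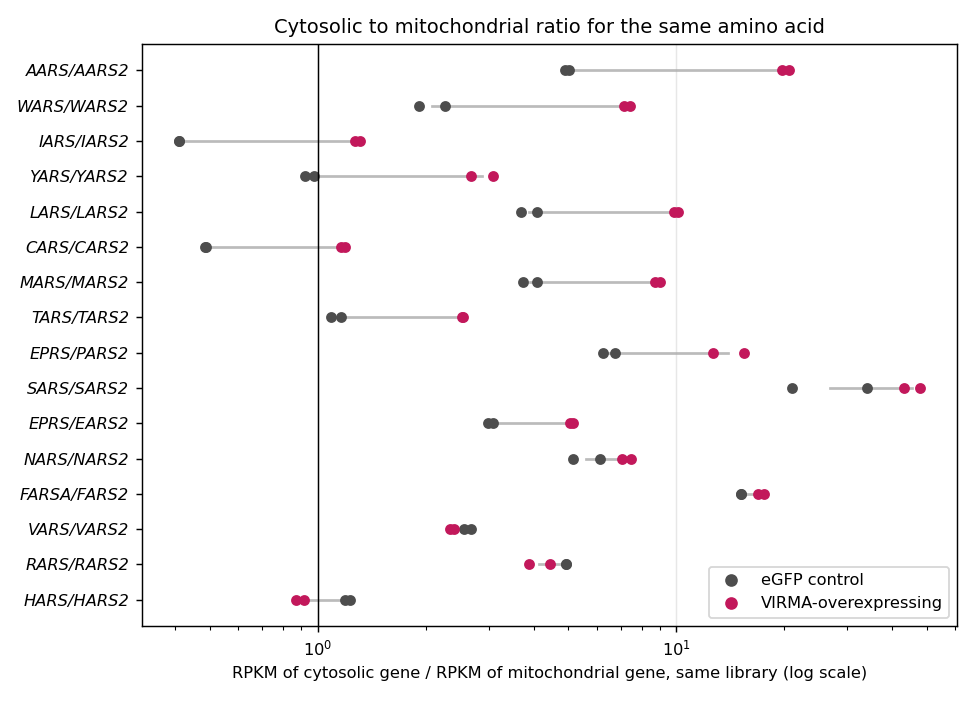
For 16 pairs of enzymes for the same amino acid, points give the RPKM of the cytosolic gene divided by that of the mitochondrial gene in each library, on a log axis, with grey lines joining the geometric means of eGFP control (grey points) and VIRMA-overexpressing (magenta points) libraries and a vertical line at equality. The magenta points lie to the right of the grey points in 13 pairs and to the left for VARS, RARS and HARS, and the pairs of IARS, CARS and YARS cross the line upward and that of HARS downward.

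Other genes of tRNA charging and translation were counted beside the synthetases. For every list, the counts stand against 35.1% of all tested genes called higher and 35.9% called lower. Of the scaffold genes of the multisynthetase complex, AIMP2 (log2 fold change 0.41) and AIMP1 (0.27) were higher and EEF1E1 (-0.08) was not called. The 4 other genes counted that modify mitochondrial aminoacyl-tRNAs had 2 lower, 1 higher and 1 not called, with a median log2 fold change of -0.20. GATB, a subunit of the amidotransferase that makes mitochondrial glutaminyl-tRNA, was at -0.56 and its partner QRSL1 at 0.26. MTFMT, which formylates the initiator tRNA, was at -0.54.

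None of the translation factors changed by more than 2-fold. Of 12 mitochondrial translation factors, 6 were higher, 4 lower and 2 not called, with a median of 0.06. Among all tested genes 35.1% were higher and 35.9% lower. These 12 lay between TSFM (-0.52), the exchange factor of the mitochondrial elongation factor Tu, and GUF1 (0.47), a ribosome-bound GTPase. Of 8 cytosolic elongation and termination factors, 7 were tested, 5 were lower, 0 were higher and 2 were not called, with a median of -0.19, between the hypusinated factor EIF5A (-0.33) and the release factor ETF1 (0.05). The eighth, EEF1G, was listed at 0 in all 4 libraries, although every cell uses it.

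Among 11 tested genes of tRNA export, end repair and splicing, 4 were higher and 6 lower, with a median of -0.21. The shares of all tested genes were 35.1% and 35.9%. XPOT, the exporter that carries mature tRNAs out of the nucleus, had 104 and 106 CPM in the controls and 281 and 278 CPM with VIRMA. Both VIRMA-overexpressing libraries were above both controls, by 1.41 (SE 0.0326, adjusted p = 3.63e-29 by edgeR), a change of the size seen for IARS. TSEN34, a subunit of the tRNA splicing endonuclease, went the other way, with 91.1 and 93.5 CPM in the controls and 39.95 and 42.2 CPM with VIRMA. It was lower by -1.17 (SE 0.0424, adjusted p = 2.96e-23 by edgeR), without overlap.

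The tRNA proofreading and synthetase-like list had 4 of 6 genes tested, 2 higher and 0 lower, between PTRH2 (-0.14, not called), a peptidyl-tRNA hydrolase, and TARSL2 (0.47), a threonyl synthetase-like gene. The selenocysteine list had 3 of 5 tested, 1 higher and 2 lower, between the selenophosphate synthetase genes SEPHS1 (-0.54) and SEPHS2 (0.24). Of 12 tested genes of RNA polymerase III, the enzyme that transcribes tRNA genes, 5 were higher, 4 lower and 3 not called, with a median of -0.01, between its subunits POLR3K (-0.67) and POLR3E (0.30). The list of ATF4 and other known ATF4 targets was higher in 8 of 8 genes, 7 of them past both thresholds, with a median of 2.22. Among all tested genes, 35.1% were called higher and 4.52% were higher past both thresholds. These 8 genes were chosen with earlier results of these data known, so their count is a description and not a test. The list ran from ATF4 itself (0.73) to DDIT3 (3.48), which encodes the stress transcription factor CHOP. These are mRNA values, and the study saw little change of ATF4 protein in VIRMA-overexpressing SKBR3 cells without added stress.

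**Figure D5:**
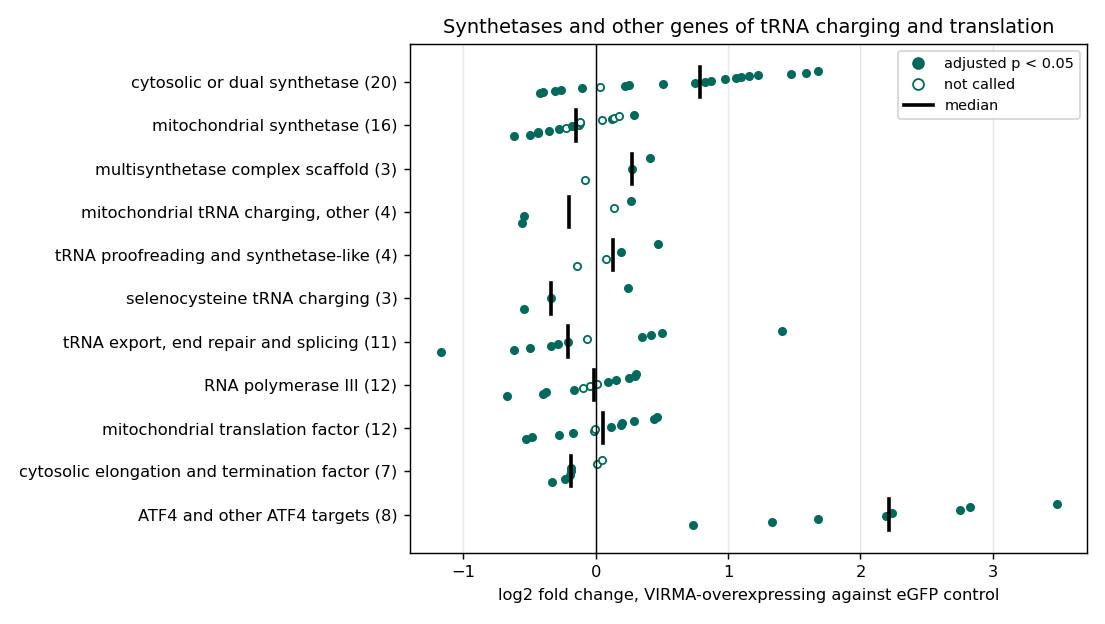
Each point is the log2 fold change of 1 tested gene (VIRMA-overexpressing against eGFP control), with 1 line of points per gene list, the number of tested genes in brackets, filled points for an edgeR adjusted p below 0.05 and black bars at the medians. The medians of the cytosolic synthetases (0.79) and of the ATF4 list (2.22) lie to the right of 0, and those of the other lists between -0.34 and 0.27. All lists were chosen with earlier results of these data known.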

How the data were processed

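Per the labels and the study's methods, the authors trimmed paired-end reads with Trimmomatic 0.39, mapped them to hg38 (Ensembl annotation) with STAR 2.5.2a and deposited featureCounts counts per gene. The strand setting and the treatment of reads with several alignments were not given in the sources used here. The columns named for the VIRMA construct by a number were taken as the group other than control, and 0 columns were left unused. The 36 genes, the other lists and the motifs were chosen with earlier results of these data known.

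Genes with more than 1 RPKM (on library totals) in at least 2 of 4 libraries (12205 of 56271 rows, all 36 synthetases among them) were tested with edgeR 4.0.16 (R 4.3.3, limma 3.58.1) by quasi-likelihood on the counts, with TMM factors and p-values adjusted by Benjamini-Hochberg across every tested gene. The thresholds were an adjusted p of 0.05 and, where stated, an absolute log2 fold change of 1. CPM (counts-per-million) values refer to the TMM-scaled counts of tested genes, and RPKM divides them by the deposited exonic length in kilobases. SE is that of the log2 fold change. Values in every library were given for the 6 synthetases with the highest and the 3 with the lowest log2 fold change in each class, and for the other lists their highest and lowest gene was named, with MTFMT and AIMP1 added after their values were seen. Exonic overlaps came from the deposited exon coordinates, taking a gene's first listed strand for all its exons. On simulated counts for the 12205 genes, 92.6% of 68 genes changed 1.5-fold, 95.5% of 66 changed 2-fold and 100% of 66 changed 4-fold were recovered, with 4 unchanged genes called. Only these genes were changed in the simulation, in both directions, whereas 71% of tested genes were called in the real data. It therefore does not measure how many of the real calls are false. Alternatives were DESeq2 1.42.0, its size factors, upper-quartile and library-total scaling, 3 other filters, a replicate block and each library left out. The cytosolic class was also taken without GARS and KARS, and the classes without HARS and HARS2.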

Additional observations from a re-analysis of the deposited data

How the results depend on the processing

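With 2 libraries a group, the calls rest on a spread shared over all genes. Library totals and upper-quartile factors moved the median log2 fold change over all genes tested by 0.086 and 0.072, so small calls depend on scaling. Under these 2 scalings KARS (-0.02 and -0.03) and CARS2 (-0.03 and -0.05) were no longer called, while RARS (0.12 and 0.11), HARS2 (0.13 and 0.12) and NARS2 (0.22 and 0.21) were called higher, giving 4 mitochondrial genes higher under each. Their mitochondrial medians were -0.066 and -0.08 and their cytosolic medians 0.87 and 0.86. The cytosolic median was 0.78 with DESeq2 and with its size factors, 0.74 with filterByExpr, 0.75 with no filter, 0.76 with at least 10 counts and 0.82 without HARS and HARS2, where the difference between the classes was 0.84. Without the dual genes GARS and KARS, 13 of 18 cytosolic genes were higher, 4 were lower and 6 were higher past both thresholds. Their median was 0.79. The mitochondrial median was -0.20 with filterByExpr and -0.19 with no filter. EARS2 was not called with DESeq2 (0.12), filterByExpr (0.08), no filter (0.09) or at least 10 counts (0.09), which left 1 mitochondrial gene higher in each. RARS was at -0.0077 with filterByExpr. Genes without a counted neighbour, chosen after seeing the data, gave 8 cytosolic genes higher, 3 lower, 2 past both thresholds and a median of 0.63, and 1 mitochondrial gene higher, 5 lower and a median of -0.23.

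Leaving out each library in turn gave a VIRMA log2 fold change of 2.25 to 2.32, 14 cytosolic genes higher in each case, 4 to 5 lower, 7 to 8 past both thresholds and a cytosolic median of 0.78 to 0.79. It gave 0 to 3 mitochondrial genes higher, 8 to 9 lower and a median of -0.19 to -0.12, and a difference between the classes of 0.73 to 0.82. RARS was at -0.0031 without control library 1 and at 0.0711 without control library 2. SARS2 was at 0.57 (adjusted p = 0.00442 by edgeR) without control library 1 and at -0.14 without control library 2. KARS was not called without control library 2 or VIRMA library 1, NARS2 was called without control library 1 (0.25), and without VIRMA library 2 PARS2 was called (-0.40) and RARS2 was not (0.22). The log2 change in the ratio of RARS to RARS2 was -0.35 without VIRMA library 1 and -0.15 without VIRMA library 2.

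The replicate numbers gave no evidence of pairing (correlation 0.053 between the deviations of libraries with the same number). With a replicate block VIRMA was at 2.29 and the counts were 14 higher and 5 lower for the cytosolic class and 2 higher and 8 lower for the mitochondrial class.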
